A study of Mus musculus with 18 samples.

Results

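The 10 genes described here encode most of the steps of glucose breakdown, from uptake to lactate, together with the hypoxia-induced growth factor Vegfa. The steps of Gpi1, Tpi1 and Pgam1 are not among them. They were Slc2a1, Hk2, Pfkl, Aldoa, Gapdh, Pgk1, Eno1, Pkm, Ldha and Vegfa, and they were taken by symbol from a table of 55450 mouse genes. The symbol Aldoa occurred on 2 rows, so 11 rows carried the 10 symbols. The smaller Aldoa row held 221 counts in all and was left aside, and all 10 genes passed the filter on low counts. Gapdh was included both as a glycolytic enzyme and because it is a common reference gene.

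The cells were ED1SQ4, a murine lung cancer line grown in culture. They were treated for 72 hours with vehicle or with 0.5 µM CYC065, an inhibitor of the cyclin-dependent kinases CDK2 and CDK9. Total RNA was sequenced from unsorted cells and from cells sorted on DNA content, after staining with a DNA dye, into diploid (2N) and polyploid (4N) populations. The 6 groups were therefore vehicle unsorted, vehicle 2N, vehicle 4N, CYC065 unsorted, CYC065 2N and CYC065 4N, all of the same single line. A 4N gate also holds cells of an ordinary cycle that have copied their DNA and not yet divided. Each group had 3 columns of counts. Their titles number them as replicates 1 to 3, but their library names number them as parts of 1 library, and over genes with whole counts they agreed within sampling noise. Over genes with whole counts, chi-square per degree of freedom between the 3 columns of a group ran from 0.991 to 1.02, against 36.6 to 475 between the groups compared. Over all genes with fractional counts it was 4.35 to 7.60, and over the 10 genes described here 0.609 to 2.07. No label says that they were separate cultures. The 3 columns were therefore summed and counted as 1 library, with 54750168 to 62795450 counts. Pairwise log2 ratios therefore carry an interval for counting error only and no p-value. The p-values below come from 1 fit over the 6 libraries (edgeR quasi-likelihood test, population plus treatment). They measure only the spread between these library pairs, which were not stated to be separate cultures. Levels are CPM, each count as a share of its library's total after TMM scaling, and are relative to each library. In bulk samples, fewer cells of a type and less RNA per cell cannot be told apart.

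Marker genes were checked first. Of 12 epithelial markers, 1 passed the filter (Krt8, at most 0.648 CPM), Cldn7, Nkx2-1 and Scgb1a1 had a count of 0 in every library, and the summed level of the list was 0.609 to 1.75 CPM. All 11 mesenchymal markers passed it, among them Fn1 (6835 to 11186 CPM) and Vim (2145 to 4630 CPM), with a summed level of 18164 to 27022 CPM. The labels give lung as the tissue, and the epithelial and lung lineage markers listed were absent or near 0. Endothelial markers summed to 0.597 to 1.89 CPM. Immune markers summed to 4.73 to 26.1 CPM. Of the 7 listed, 2 passed the filter. Cd68, found in macrophages and in lysosomes of other cells, was at 3.38 to 24.5 CPM and rose with CYC065 (log2 2.26). The other, Csf1r (463 counts in all), was lower with CYC065 but not called (list median 0.76). Ptprc, the pan-leukocyte marker, had at most 1 count in a library. The G2/M list was higher in 4N than in 2N cells, with a median log2 ratio over 10 genes of 0.72 in vehicle and 1.28 in CYC065. All 10 of its genes fell with CYC065 (median -1.28), as did 27.1% of all genes tested. The part of this shift in cycling cells in the values below was not tested.

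Glycolysis splits glucose into pyruvate in the cytosol. Glucose enters through carriers such as GLUT1 (Slc2a1), is trapped by hexokinase (Hk2), committed by phosphofructokinase (Pfkl) and cleaved by aldolase (Aldoa), and the products then pass through Gapdh, Pgk1, enolase (Eno1) and pyruvate kinase (Pkm). Lactate dehydrogenase A (Ldha) turns pyruvate into lactate, which many tumor cells do even with oxygen present. Most of these genes, and Vegfa, which calls in blood vessels, are textbook targets of the hypoxia-inducible factors HIF-1 and HIF-2. These factors pair an alpha subunit with Arnt and bind a short core sequence, and MYC binds the related E-box CACGTG.

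The bases just before the start of transcription are shown for 3 genes: the member with the largest fall (Ldha), a member that fell with the group (Pgk1) and the only member that rose (Vegfa). Each run is the 170 bases before a RefSeq start on GRCm38.p6, written 5′ to 3′ on the gene's strand. Capitals mark matches on either strand to ACGTG or GCGTG, the cores bound by HIF, and the E-box CACGTG holds such a core on both strands. The Ldha run is chr7:46845634-46845803 (plus strand), the Pgk1 run chrX:106186930-106187099 (plus strand) and the Vegfa run chr17:46032378-46032547 (minus strand).
Ldha: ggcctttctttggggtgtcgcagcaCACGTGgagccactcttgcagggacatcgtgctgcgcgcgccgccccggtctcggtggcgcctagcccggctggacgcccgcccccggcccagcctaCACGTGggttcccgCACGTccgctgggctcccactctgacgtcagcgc
Pgk1: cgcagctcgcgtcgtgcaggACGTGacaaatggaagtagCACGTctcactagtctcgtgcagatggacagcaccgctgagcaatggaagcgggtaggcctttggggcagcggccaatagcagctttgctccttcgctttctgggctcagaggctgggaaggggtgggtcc
Vegfa: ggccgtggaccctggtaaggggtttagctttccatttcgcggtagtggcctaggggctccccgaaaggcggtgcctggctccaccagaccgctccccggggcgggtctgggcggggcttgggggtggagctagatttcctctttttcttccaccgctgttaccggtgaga

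In the 250 bases before this Ldha start, 5 core matches were found, which include 2 E-boxes counted on both strands. The Pgk1 window held 2 cores and no E-box, and this Vegfa window neither. A second RefSeq start of Vegfa had 2 cores, and a second start of Ldha had 1. RefSeq gave 17 starts for the 10 genes, and 14 of the 17 windows held at least 1 core. Among all 32851 RefSeq windows of the same length, 38.6% held a core and 6.02% an E-box. The Ldha window was the only 1 of the 17 with an E-box. A match describes letters and not a bound site, and several of the 17 windows overlap.

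In mm10 coordinates, Ldha lies on chromosome 7 (46841475 to 46855627, plus strand), Pgk1 on chromosome X (106187100 to 106203699, plus strand) and Vegfa on chromosome 17 (46016993 to 46032369, minus strand). Slc2a1 (119108711 to 119137983) and Eno1 (150236721 to 150248879) are both on the plus strand of chromosome 4. Hk2 (82725025 to 82774454) and Gapdh (125161715 to 125166467) are both on the minus strand of chromosome 6. Pfkl lies on chromosome 10 (77986947 to 78010083, minus strand), Aldoa on chromosome 7 (126795234 to 126800751, minus strand) and Pkm on chromosome 9 (59656368 to 59679375, plus strand). All counts are over the exons of these genes.

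Per length of transcript, the genes fell into an abundant lower part of the pathway and a scarcer top. Mean levels over the 6 libraries were 765 CPM per kb for Pkm, 762 for Gapdh, 684 for Pgk1, 607 for Aldoa, 534 for Eno1 and 416 for Ldha. Vegfa followed at 96.6, then Pfkl at 42.2, Slc2a1 at 40.5 and Hk2 at 14.4 CPM per kb. Pkm was above Gapdh in 2 of 6 libraries and Pfkl above Slc2a1 in 3 of 6, so neither pair had a fixed order. Gapdh was above Pgk1 and Pgk1 above Aldoa in 5 of 6, and every other neighbouring pair kept its order in all 6.

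**Figure D1:**
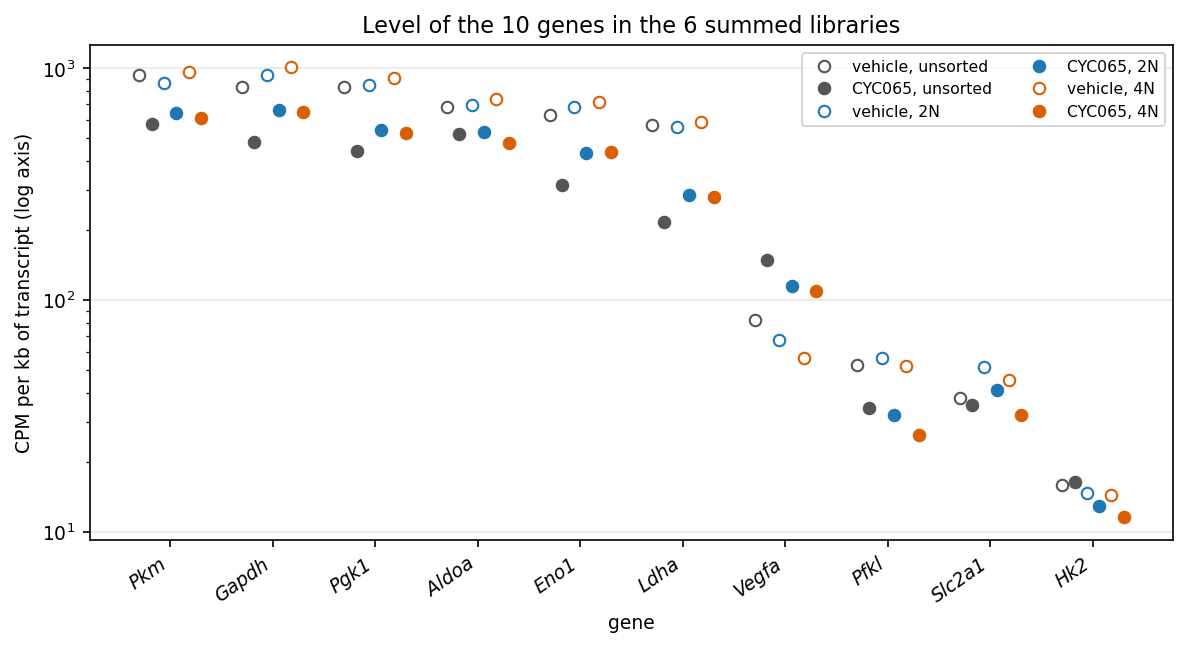
Level of each of the 10 genes (x axis) in CPM per kb of its longest coding transcript (y axis, log scale), with 1 point for each of the 6 summed libraries, open for vehicle and filled for CYC065. For the 6 genes on the left all 3 filled points lie below all 3 open points, and for Vegfa all 3 lie above. The share of all genes with such a separation was not counted.

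With CYC065, most of the 10 genes were lower in every population and Vegfa was higher. In the fit over the 3 vehicle-CYC065 pairs, 8 of the 10 genes fell and 1 (Vegfa) rose, while Hk2 did not pass the test (edgeR, adjusted p under 0.05 over 14762 genes). Of all genes tested, 27.1% fell and 27.7% rose by the same rule, and of the 2225 genes that averaged at least 100 CPM, 36.9% fell. The median log2 change of the 10 genes was -0.62, against 0.03 over all genes and -0.10 over those abundant genes. The call rested on 3 pairs. Without the 4N pair 6 of 10 genes were called (Slc2a1, Aldoa, Pkm and Hk2 were not). Without the 2N pair 7 were called (Slc2a1, Aldoa and Hk2 were not), and without the unsorted pair all 10. Calls over all 14762 genes moved likewise, from 8087 to 5403, 4985 and 9303.

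Slc2a1, the main basal glucose carrier, was at 124 CPM in unsorted vehicle cells and 115 CPM in unsorted CYC065 cells. It was at 168 and 134 CPM in 2N cells, and at 148 and 104 CPM in 4N cells. Each CYC065 library was below its own vehicle library, but the groups overlapped, since CYC065 2N cells were above vehicle unsorted cells. The log2 ratio was -0.11 (95% counting interval -0.16 to -0.06) in unsorted cells, -0.32 (-0.37 to -0.28) in 2N cells and -0.51 (-0.55 to -0.46) in 4N cells. In the fit Slc2a1 fell by 0.31 ± 0.10 on the log2 scale (SE, 3 pairs, edgeR adjusted p = 0.0457). That call was lost with DESeq2 size factors (edgeR adjusted p = 0.0518) and with a filter of 100 counts (edgeR adjusted p = 0.0676), and without the first of the 3 columns (edgeR adjusted p = 0.0564). It was also lost without the 2N pair (log2 change -0.31) and without the 4N pair (-0.22).

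Hk2, the inducible hexokinase that many tumors use, was the member with the smallest change. Its level was 88.3 and 90.6 CPM in unsorted vehicle and CYC065 cells, 81.0 and 71.5 CPM in 2N cells, and 79.3 and 64.0 CPM in 4N cells. The unsorted ratio of 0.04 had a counting interval from -0.02 to 0.09, while the 2N (-0.18) and 4N (-0.31) ratios were below 0 beyond counting error. The fitted log2 change was -0.15 ± 0.10 (SE, 3 pairs, edgeR adjusted p = 0.249), and without the unsorted pair it was -0.29 (edgeR adjusted p = 0.0228).

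Pfkl, the liver-type subunit of the enzyme that commits sugar to glycolysis, was at 196 CPM in unsorted vehicle cells and 128 CPM in unsorted CYC065 cells. It was at 211 and 119 CPM in 2N cells and at 194 and 97.4 CPM in 4N cells. The vehicle and CYC065 libraries did not overlap. For this gene and those below, the share of all genes without such overlap was not counted. Pfkl fell by 0.81 ± 0.10 on the log2 scale, with an edgeR adjusted p of 0.00162, and its level fell by 43.1%. The ratios were -0.62, -0.83 and -0.995 in unsorted, 2N and 4N cells.

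The members between aldolase and pyruvate kinase (Aldoa, Gapdh, Pgk1, Eno1 and Pkm) were lower with CYC065 in every population, with ratios from -0.39 to -0.999. Of all genes tested, 50.7% had a ratio below 0 in unsorted, 49.7% in 2N and 48.2% in 4N cells. The share below 0 in every population was not counted. Aldoa, which cleaves fructose bisphosphate, was at 1057 and 807 CPM in unsorted vehicle and CYC065 cells, 1076 and 822 CPM in 2N cells and 1142 and 742 CPM in 4N cells. It fell by 0.47 ± 0.11 (edgeR adjusted p = 0.0126). The Aldoa call was lost without the 2N pair (log2 change -0.51) and without the 4N pair (-0.39). Pgk1, which makes the first ATP of the pathway, was at 1521 and 804 CPM in unsorted cells, 1551 and 991 CPM in 2N cells and 1660 and 965 CPM in 4N cells. It fell by 0.78 ± 0.11 (edgeR adjusted p = 0.00242).

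Eno1, the ubiquitous enolase, was at 1275 and 638 CPM in unsorted vehicle and CYC065 cells, 1381 and 872 CPM in 2N cells and 1446 and 887 CPM in 4N cells. Its fitted fall was 0.79 ± 0.12 on the log2 scale (edgeR adjusted p = 0.00276), and its unsorted ratio of -0.999 lay just inside a log2 change of 1. Pkm, whose M2 splice form is the pyruvate kinase of dividing cells, was at 2271 and 1393 CPM in unsorted cells, 2100 and 1565 CPM in 2N cells and 2351 and 1479 CPM in 4N cells. Pkm fell by 0.60 ± 0.12 (edgeR adjusted p = 0.00788). The table counts whole genes, so the M1 and M2 forms were not separated. For each of these genes the 3 CYC065 libraries were below the 3 vehicle libraries. In the fit 27.1% of all genes tested fell, and how many of all genes separated in this way was not counted.

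Ldha was the member with the largest fall. Its level was 1037 CPM in unsorted vehicle cells and 396 CPM in unsorted CYC065 cells, 1014 and 514 CPM in 2N cells, and 1065 and 508 CPM in 4N cells. The 3 vehicle libraries lay close together, and the 3 CYC065 libraries were all far below them. The log2 ratios were -1.39 (95% counting interval -1.41 to -1.37), -0.98 (-1.0 to -0.96) and -1.07 (-1.09 to -1.05). The fitted fall was 1.14 ± 0.12 (edgeR adjusted p = 0.000911), and 7.85% of all genes had a fitted change as low or lower.

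Vegfa, the main growth factor for vessel formation, moved the other way. It was at 284 CPM in unsorted vehicle cells and 514 CPM in unsorted CYC065 cells, 233 and 396 CPM in 2N cells, and 194 and 378 CPM in 4N cells. Every CYC065 library was above every vehicle library. Vegfa rose 1.82-fold in the fit, by 0.86 ± 0.09 on the log2 scale (edgeR adjusted p = 0.000926), with ratios of 0.85, 0.77 and 0.96. Of all genes, 82.6% had a fitted change as low or lower.

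Few members passed a log2 change of 1 in any single population. In unsorted cells 1 of 10 did (Ldha), against 25.3% of all genes. In 2N cells none did, against 27.8%, and in 4N cells 1 did (Ldha), against 25.7%. The median ratio of the 10 genes was -0.66 in unsorted, -0.46 in 2N and -0.65 in 4N cells, and the medians over all genes lay between -0.01 and 0.03. For Gapdh, Pgk1, Eno1, Pkm and Ldha the ratio was lowest in unsorted cells, and for Slc2a1, Hk2, Pfkl and Aldoa it was lowest in 4N cells. For Pkm the unsorted (-0.70) and 4N (-0.67) ratios were close, and their order was reversed with DESeq2 size factors. Differences between populations were not tested beyond counting error.

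**Figure D2:**
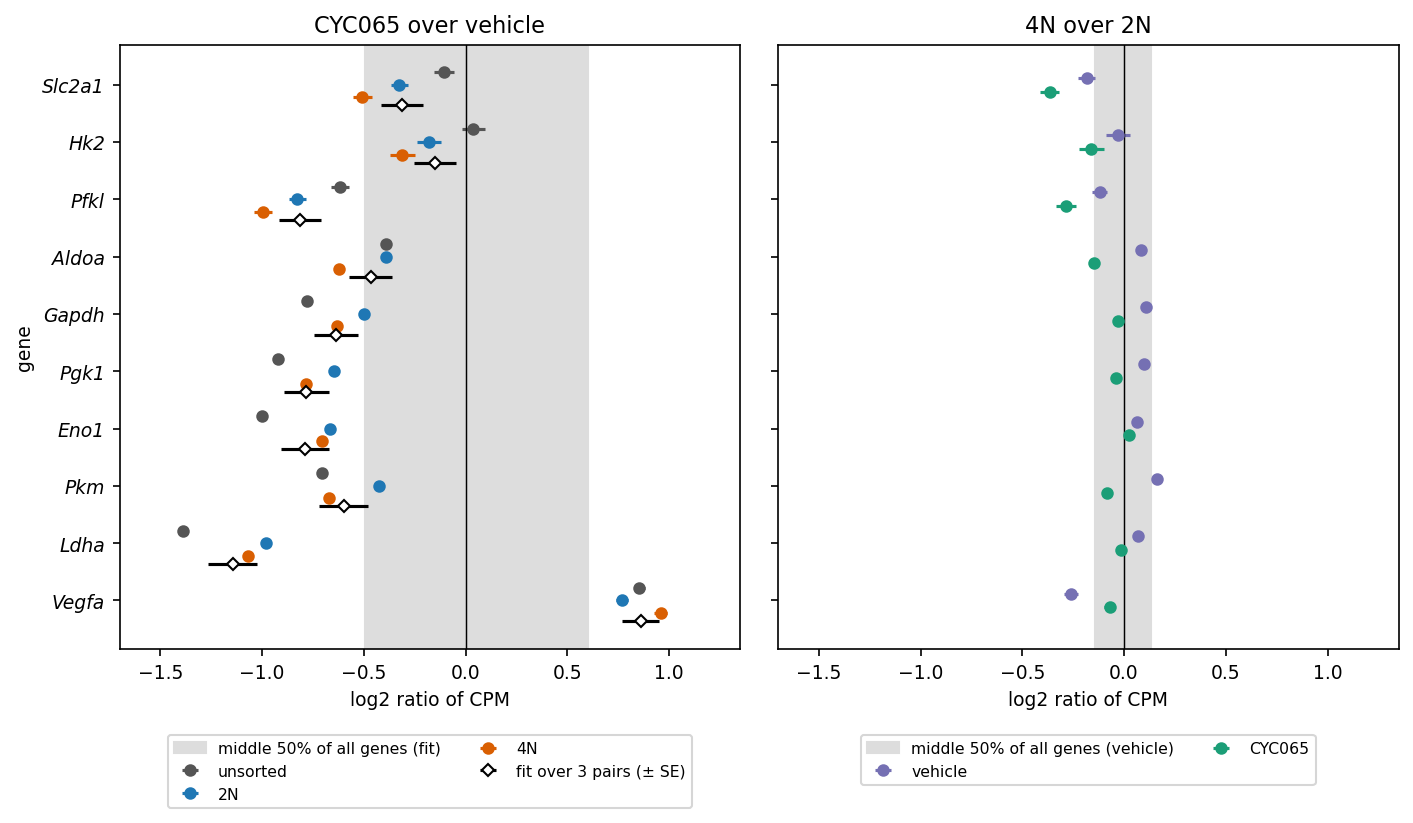
Left, log2 ratio of CYC065 over vehicle (x axis) for each gene (y axis) in unsorted, 2N and 4N cells with 95% counting intervals, and the fit over the 3 pairs with its SE. Right, log2 ratio of 4N over 2N cells in each treatment. Shading is the middle 50% of all genes, for the fit in the left panel and for vehicle cells only in the right panel. The left panel spans -1.39 (Ldha) to 0.96 (Vegfa), and the right panel -0.36 (Slc2a1) to 0.16 (Pkm).

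Between 4N and 2N cells the 10 genes differed far less than between treatments. No member was called in the fit over both treatments (edgeR, unadjusted p under 0.05 for 0 of 10), where 0% of all genes were called and 520 of 14762 had an unadjusted p under 0.05. That fit also called no gene of the G2/M list, whose median 4N over 2N log2 ratio was 0.72 in vehicle and 1.28 in CYC065 cells. The lack of calls therefore cannot show that a member did not differ. DESeq2 with the same design called 97 genes and limma-voom none, and neither called a member. No member passed a log2 ratio of 1 in vehicle cells (2.74% of all genes did) or in CYC065 cells (3.63% did). The member ratios had a median of 0.07 in vehicle cells and -0.08 in CYC065 cells, against 0.00 over all genes in both.

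Slc2a1, Pfkl and Vegfa were lower in 4N than in 2N cells under both treatments. The Slc2a1 ratio was -0.18 (95% counting interval -0.22 to -0.14) in vehicle cells and -0.36 (-0.41 to -0.32) in CYC065 cells. The Pfkl ratio was -0.12 and -0.29, and the Vegfa ratio -0.26 (-0.30 to -0.23) and -0.07 (-0.10 to -0.05). Eno1 was slightly higher in 4N cells under both, at 0.07 and 0.03. With TMM scaling, Aldoa, Gapdh, Pgk1 and Pkm were higher in 4N cells with vehicle and lower with CYC065, each beyond counting error. The share of all genes with such a change of sign was not counted. For Gapdh this rested on a CYC065 ratio of -0.03, which turned positive with library size scaling and was -0.009 with its near-identical rows added. The Pgk1 ratio in CYC065 cells was -0.04, and library size scaling moved it up by 0.03, to within counting error of 0. Over the 10 genes, the 4N over 2N ratio was lower in CYC065 than in vehicle cells for 9, against 48.9% of all genes. The median difference was -0.14, against 0.01 over all genes, and 0.00038 when the members were taken relative to Gapdh. With 1 library per group the difference between treatments has no replicate check.

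Rows of near-identical genes touched part of these values. Counts were split by expected share where a read fits several genes, and 24.7% of the 50-base words of Gapdh, 53.9% of those of Pgk1, 26.0% of those of Eno1 and 25.8% of those of Pkm also occur in other genes. These shares are over the words of all annotated transcripts of a gene (4598 for Gapdh, whose longest coding transcript has 1420 bases). The shared part of the coding transcript itself was not computed and can be larger. The Gapdh row held 54.0% to 56.2% of the counts of its family, and most of the rest went to the pseudogene row Gm13394 (503 to 1106 CPM). The Eno1 row held 54.8% to 56.5%, with the remainder on Eno1b and Gm4735. Pgk1 and Pkm held at least 95.3% and 96.2% of theirs. With every row added that shares 5% or more of a member's words, the Gapdh ratios were -0.79, -0.50 and -0.61 in unsorted, 2N and 4N cells and those of Eno1 -0.99, -0.69 and -0.70. On that count Gapdh was the most abundant family per length (1383 CPM per kb) and Eno1 the second (960). Slc2a1, Hk2, Pfkl and Vegfa had whole counts in all 18 columns.

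The other enzymes and isozymes of glycolysis did not move one way. Of 24 listed, 15 passed the filter, 6 rose, 4 fell and 5 were not called, with a median log2 change of 0.01. For this and every list below, 27.1% of all genes tested fell and 27.7% rose by the same rule. The list holds Eno1b, which is not independent of the members, since 76.4% of its 50-base words also occur in Eno1. Its ratios were -0.99, -0.75 and -0.65 in unsorted, 2N and 4N cells. Tpi1, which interconverts the triose phosphates, fell by 1.3 ± 0.10 (edgeR adjusted p = 0.000494), and Pgam1, the mutase before enolase, by 0.75 ± 0.10 (edgeR adjusted p = 0.00177). Gpi1, the isomerase after hexokinase, was not called (-0.19). Among the kinases that set the level of fructose 2,6-bisphosphate, Pfkfb2 (0.55), Pfkfb3 (0.39) and Pfkfb4 (0.77) rose and Pfkfb1 (-0.31) was not called.

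Partners of the members shifted the mix of isozymes. Ldhb, the lactate dehydrogenase subunit of oxidative tissues, was at 17.8 and 58.7 CPM in unsorted vehicle and CYC065 cells, 12.6 and 52.9 CPM in 2N cells and 13.6 and 47.6 CPM in 4N cells. It rose by 1.86 ± 0.11 on the log2 scale (edgeR adjusted p = 0.00036), and 21% of its 50-base words also occur in the row Gm5514. Its share of lactate dehydrogenase transcripts per length was 2.34%, 1.71% and 1.74% in unsorted, 2N and 4N vehicle cells. In CYC065 cells it was 17.1%, 12.5% and 11.5%, so Ldha still made up most of the transcripts.

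Pfkm, the muscle-type phosphofructokinase, rose by 0.40 ± 0.09 (edgeR adjusted p = 0.0107), while Pfkp, the platelet type, was not called (-0.17). The Pfkl share of phosphofructokinase transcripts per length was 53.0%, 62.3% and 59.5% in unsorted, 2N and 4N vehicle cells and 43.2%, 44.5% and 39.3% in CYC065 cells. Of the enolases, Eno3 of muscle fell by 2.02 ± 0.30 (edgeR adjusted p = 0.00273) and neuronal Eno2 rose by 0.56 ± 0.12 (edgeR adjusted p = 0.0118). Eno1 made up 84.8% to 91.8% of the 3 in all libraries. This used the Eno1 row alone, without Eno1b and Gm4735, so the Eno1 share is likely too low. Hk1, the constitutive hexokinase, was more abundant than Hk2 in every library, at 63.1% to 67.4% of the pair, and was not called (0.01). Aldoc was at or under 1.1 CPM, and Pgk2 had a count of 0 in all libraries.

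**Figure D3:**
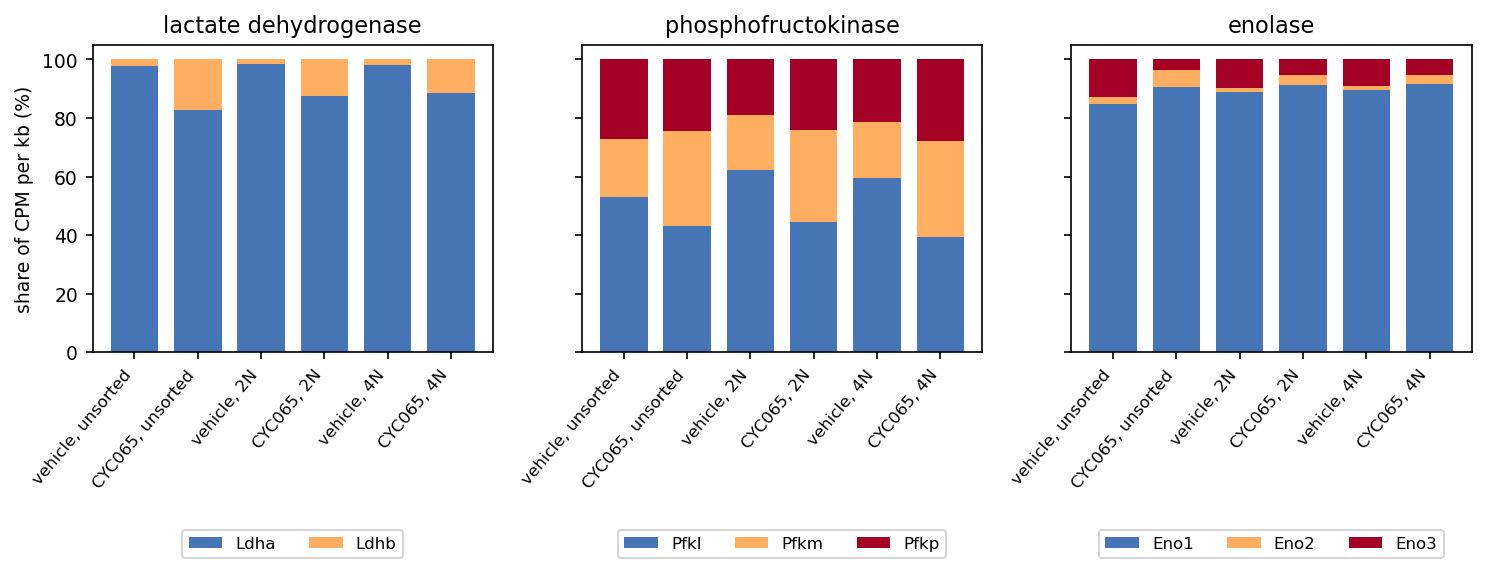
Share of each isozyme (y axis, percent of summed CPM per kb of the family) in the 6 libraries (x axis) for lactate dehydrogenase, phosphofructokinase and enolase. The Eno1 share leaves out its near-identical rows Eno1b and Gm4735. With CYC065, Ldhb takes 11.5% to 17.1% instead of 1.71% to 2.34%, and Pfkl 39.3% to 44.5% instead of 53.0% to 62.3%.

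Carriers of glucose and lactate were measured beside Slc2a1. Of 14 listed, 9 passed the filter, 1 rose, 3 fell and 5 were not called, with a median log2 change of -0.49. Slc16a3 (MCT4), the lactate exporter of glycolytic cells, was at 462 and 168 CPM in unsorted vehicle and CYC065 cells, 481 and 145 CPM in 2N cells, and 531 and 130 CPM in 4N cells. It fell by 1.74 ± 0.13 on the log2 scale (edgeR adjusted p = 0.00046), more than any member. Slc16a1 (MCT1) fell by 0.49 ± 0.11 (edgeR adjusted p = 0.0135), and Bsg, the chaperone of both, was not called (0.17). The high-affinity carrier Slc2a3 fell by 1.06 ± 0.18 (edgeR adjusted p = 0.00465), from 5.03 to 6.33 CPM in vehicle cells to 2.31 to 3.62 CPM. Slc2a8, an intracellular carrier, rose by 1.54 ± 0.15 (edgeR adjusted p = 0.000795).

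Transcripts of Hif1a, Epas1 and Arnt rose, while Arnt2, with at most 48 counts in a library, was not called (0.12). Of 15 listed HIF regulators, 14 passed the filter, 6 rose, 2 fell and 6 were not called, with a median log2 change of 0.11. Hif1a was at 270 and 456 CPM in unsorted vehicle and CYC065 cells, 203 and 477 CPM in 2N cells, and 236 and 512 CPM in 4N cells. It rose by 1.04 ± 0.12 (edgeR adjusted p = 0.00125). Its partner Arnt rose by 1.28 ± 0.10 (edgeR adjusted p = 0.000511), and Epas1, which encodes HIF-2 alpha, by 1.14 ± 0.26 (edgeR adjusted p = 0.0127), with ratios of 0.36, 1.63 and 1.44 in unsorted, 2N and 4N cells. Vhl, the ligase subunit that marks HIF alpha for destruction, rose by 0.66 ± 0.10. The oxygen sensors Egln1 (-0.06) and Egln2 (0.01) were not called, Egln3 fell by 0.30 and Hif1an, which blocks HIF activity, by 0.59. HIF alpha is controlled mainly at the protein, which was not measured.

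Other hypoxia targets moved in both directions, more of them up than down. Of 30 listed, 27 passed the filter, 13 rose, 4 fell and 10 were not called, with a median log2 change of 0.40. Ddit4, an inhibitor of mTORC1, was at 52.8 and 105 CPM in unsorted vehicle and CYC065 cells, 4.49 and 60.2 CPM in 2N cells, and 3.55 and 46.2 CPM in 4N cells. It rose by 2.81 ± 0.60 (edgeR adjusted p = 0.00973). Hmox1, which degrades heme, rose by 1.72 ± 0.31 (edgeR adjusted p = 0.00559) and the peptide hormone gene Adm by 1.63 ± 0.17 (edgeR adjusted p = 0.000917).

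Those that fell included the transferrin receptor Tfrc (by 3.03 ± 0.13, edgeR adjusted p = 0.000331), Angptl4 (by 2.21 ± 0.43, edgeR adjusted p = 0.00723) and Gys1 (by 1.17 ± 0.16, edgeR adjusted p = 0.00224). Tfrc was at 238 and 35.7 CPM in unsorted vehicle and CYC065 cells, 594 and 60.5 CPM in 2N cells and 552 and 66.5 CPM in 4N cells. Several textbook HIF targets were among the 10 not called, including Bnip3 (0.03), P4ha1 (0.05), Kdm3a (0.10) and Ankrd37 (-0.40). Car9, the carbonic anhydrase often used to mark hypoxia, was at or under 1.81 CPM in every library (log2 change 1.17, edgeR adjusted p = 0.085).

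**Figure D4:**
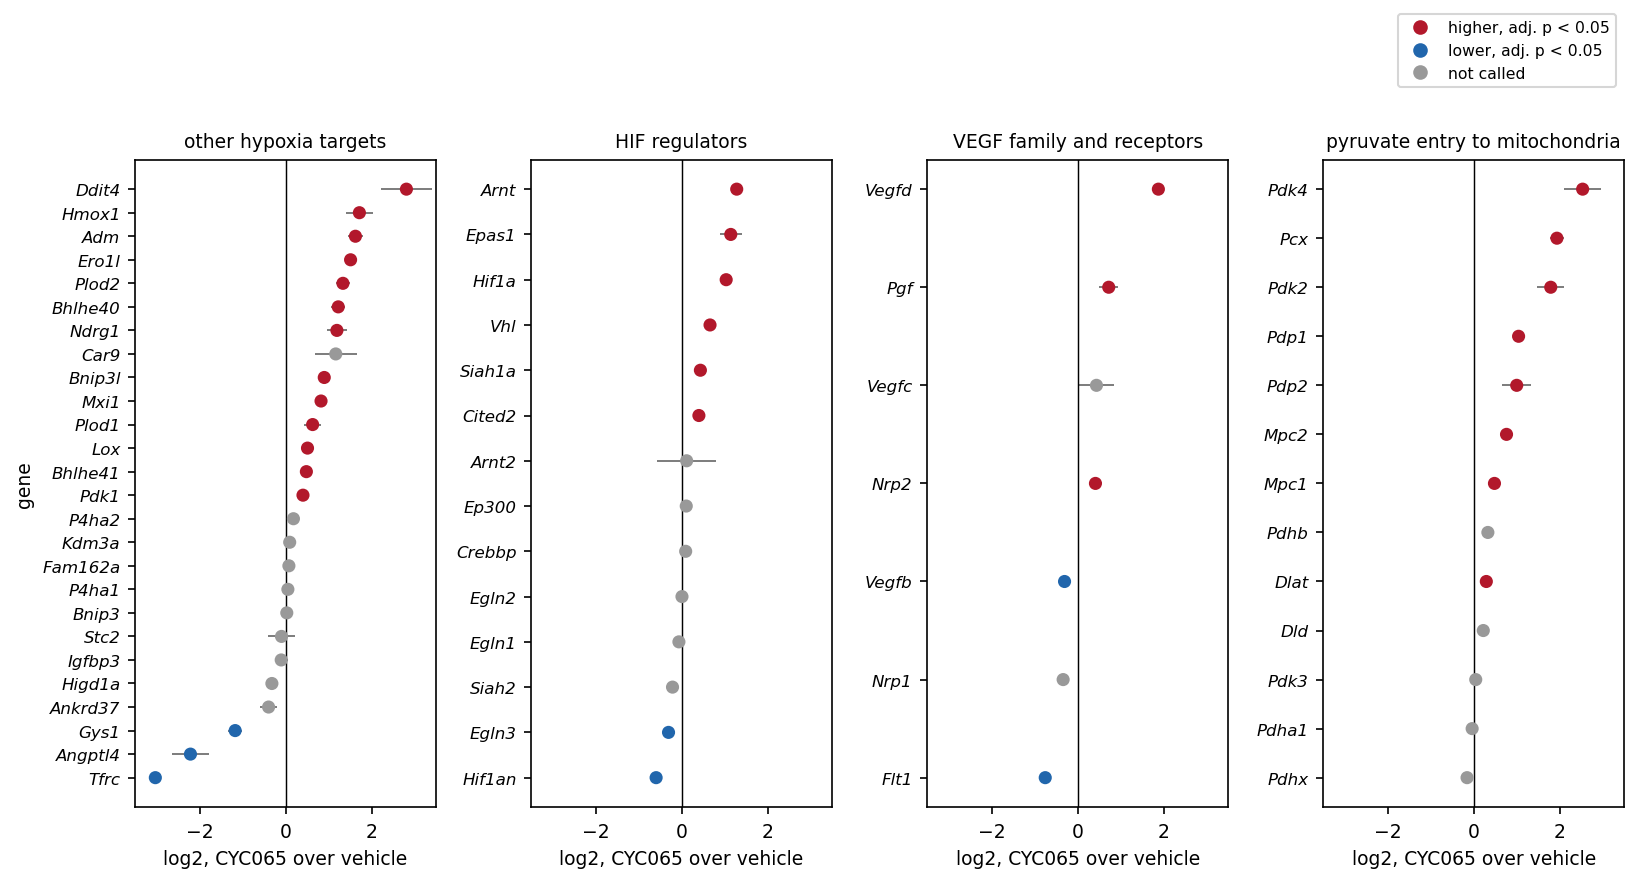
Fitted log2 change of CYC065 over vehicle (x axis, ± SE over 3 pairs) for tested genes (y axis) of 4 lists. Red points rose and blue points fell at an edgeR adjusted p under 0.05, and gray points were not called, with values from -3.03 (Tfrc) to 2.81 (Ddit4).

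Of 10 listed symbols for relatives and receptors of Vegfa, 9 were in the table and 7 passed the filter, of which 3 rose and 2 fell, with a median log2 change of 0.41. Vegfd, a ligand known for lymphatic vessels, was at 29.1 and 99.7 CPM in unsorted vehicle and CYC065 cells, 17.4 and 73.1 CPM in 2N cells and 18.7 and 64.8 CPM in 4N cells. It rose by 1.88 ± 0.11 (edgeR adjusted p = 0.000357). Pgf (0.72) and the co-receptor Nrp2 (0.41) rose, and Vegfb (-0.30) and the receptor Flt1 (-0.75) fell. Kdr, the main signaling receptor for Vegfa, had at most 5 counts in a library.

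Genes that control the entry of pyruvate into mitochondrial metabolism, both those that promote it and those that block it, rose or were not called. All 13 listed passed the filter, 8 rose, none fell and 5 were not called, with a median log2 change of 0.48. Pdk4, a kinase that switches off pyruvate dehydrogenase, rose by 2.54 ± 0.43 (edgeR adjusted p = 0.00434), from 1.01 to 3.45 CPM in vehicle cells to 8.87 to 12.3 CPM. The carboxylase Pcx rose by 1.94 ± 0.16 (edgeR adjusted p = 0.000523) and Pdk2, a kinase that acts like Pdk4, by 1.79 ± 0.31 (edgeR adjusted p = 0.0049). The opposing phosphatases Pdp1 (1.05) and Pdp2 (1.00) and both subunits of the pyruvate carrier, Mpc1 (0.48) and Mpc2 (0.76), also rose. Pdha1, the catalytic subunit, was not called (-0.04). Of 14 genes of the pentose phosphate branch and gluconeogenesis, 10 passed the filter, Tkt rose (0.89), Pgd (-0.49) and G6pc3 (-1.11) fell, and 7 were not called (list median -0.20).

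As a reference gene, Gapdh moved with the treatment. It was at 1176 and 685 CPM in unsorted vehicle and CYC065 cells, 1329 and 942 CPM in 2N cells and 1433 and 924 CPM in 4N cells. All 3 CYC065 libraries were below all 3 vehicle libraries, and Gapdh fell by 0.64 ± 0.11 on the log2 scale, with an edgeR adjusted p of 0.00461 (its level fell by 35.7%). Over the 6 libraries its log2 level had an SD of 0.40 and a range of 1.06, and 46.9% of all tested genes had an SD as low or lower (median SD 0.42).

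Of 16 other common reference genes, 12 had a lower SD than Gapdh. Rplp0 (SD 0.14) and Rpl13a (0.15) were among those that varied least and were not called. Actb, beta-actin, varied most (SD 0.74) and fell by 1.21 ± 0.15 (edgeR adjusted p = 0.00153), and Hprt fell by 1.02 ± 0.09 (edgeR adjusted p = 0.000566). Of the 16, 10 fell, none rose and 6 were not called, and their median log2 change was -0.34, with 0.03 over all genes.

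Set against Gapdh in the same library, the members' ratios changed in size and several in sign. The median ratio of the 10 genes became 0.12 in unsorted, 0.04 in 2N and -0.02 in 4N cells. Hk2 became 0.82, 0.32 and 0.32, and Slc2a1 0.67, 0.17 and 0.13. Ldha kept a negative ratio of -0.61, -0.48 and -0.43, and Vegfa became 1.63, 1.27 and 1.59.

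**Figure D5:**
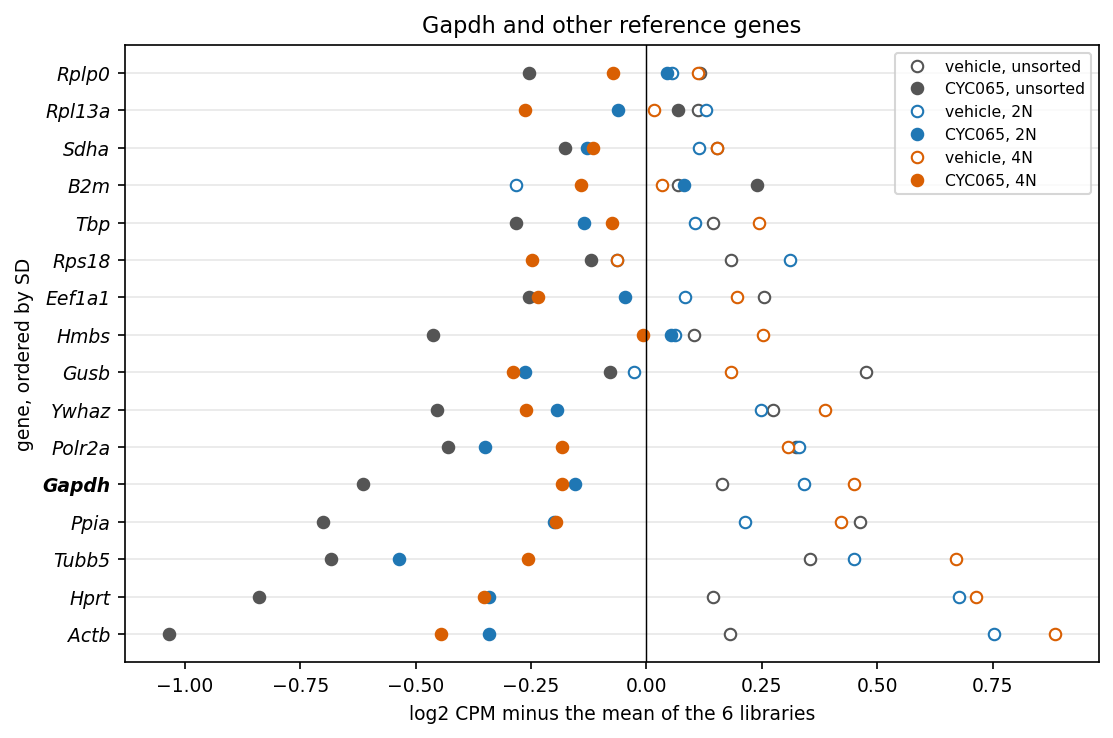
Log2 CPM minus the gene's own mean over the 6 libraries (x axis) for Gapdh and 15 of the 16 other reference genes (y axis, ordered by SD from low at the top), open for vehicle and filled for CYC065. For Gapdh all filled points lie left of 0 and all open points right of it, and it ranks 13 of all 17 by SD.

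Other genes with a profile close to a member's were sought among 10816 genes with at least 100 counts in every library, by the distance between centered log2 profiles over the 6 libraries. The nearest to Ldha were Bbip1 (distance 0.06) and Rrp7a (0.12), and to Vegfa Ccdc157 (0.09) and Plcg1 (0.11). The nearest to Pkm were Zfp768 (0.05) and Uba1 (0.08), and to Aldoa Atp5k and Uqcrfs1 (0.07 and 0.09). Gapdh had Ints14 and Gtpbp4, Pgk1 had Clic1 and Dnajc27, and Eno1 had Polr2h and its own near-identical row Gm4735. For Pfkl they were Ndufa2 and Rpl37a, for Slc2a1 Blcap and St7l, and for Hk2 Tor1aip1 and Pi4ka. In no case was the nearest gene another member.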

How the data were processed

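RNA from ED1SQ4 cells was sequenced as stranded, ribosomal RNA-depleted libraries. Per the labels, the authors used bcl2fastq 2.17, cutadapt 1.18, STAR 2.7.0f and RSEM 1.3.1 on mm10 (the paper's methods name other versions of some of these tools). The deposited values are RSEM expected counts per gene, not normalized, and 9.66% of the 55450 rows held a fractional value. Expected counts of the 3 columns of a group were summed and rounded, giving 6 libraries. Genes with at least 30 counts in 1 library (14762) were tested. Scaling was by TMM, ratios used a prior count of 0.125, and counting intervals are 95%. The test was edgeR 4.0.16 (R 4.3.3) quasi-likelihood with population and treatment as terms (2 residual degrees of freedom), Benjamini-Hochberg over all genes tested, with a call at an adjusted p under 0.05. Alternatives used limma 3.58.1 and DESeq2 1.42.0. Expression per length used the longest coding transcript. The scripts were tested on simulated data.

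The 10 genes and all gene lists were chosen with earlier results of these data known. Named were all members, isozymes with at least 100 counts, and, from each other list, the 3 largest rises and falls among genes called with a log2 change beyond 1 and at least 100 counts. Values of other list genes are given as examples chosen after the values were seen. Some list genes are counted but not reported by name here.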

Additional observations from a re-analysis of the deposited data

Results flagged for a closer look

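With TMM scaling, 4 of the 10 genes had a 4N over 2N ratio of opposite sign in the 2 treatments, each beyond counting error. The share of all genes that met this rule was not counted. Counting error is small for genes this abundant (SE 0.006 to 0.009 for these ratios), so small ratios pass it. Aldoa was at 0.08 in vehicle and -0.15 in CYC065 cells, a difference of -0.23, and Pkm at 0.16 and -0.08, a difference of -0.24. Gapdh was at 0.11 and -0.03 (difference -0.14), but the CYC065 ratio turned positive with library size scaling and was -0.009 with its near-identical rows added. Pgk1 was at 0.10 and -0.04 (difference -0.14), but library size scaling moved the CYC065 ratio up by 0.03, to within counting error of 0. These differences were not tested, since each group is 1 library.

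Among the other list genes, a response to CYC065 of opposite sign and beyond 0.5 in both populations compared was seen for 4. Txnip had a ratio of 1.80 in unsorted, -0.74 in 2N and -1.01 in 4N cells, a difference from unsorted cells of -2.54 in 2N and -2.81 in 4N cells. Pck2 went the other way, at -1.08, 0.93 and 0.86, with differences of 2.01 and 1.95. Arnt2 had at most 48 counts in a library and a 2N minus unsorted difference of 3.51. The endothelial marker Cdh5 had at most 91 counts and a 4N minus unsorted difference of -2.73. None of these differences was tested.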

How the results depend on the processing

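Values below are the median log2 ratio of the 10 genes in unsorted, 2N and 4N cells (CYC065 over vehicle), then 4N over 2N in vehicle and in CYC065 cells, where it moved beyond counting error. With library size alone they were -0.77, -0.40, -0.57, 0.085 and -0.044, and 3 genes passed a log2 of 1 in unsorted cells. Library size scaling moved the log2 ratios by -0.11, 0.06, 0.08, 0.02 and 0.03 against TMM. DESeq2 size factors gave -0.69 in 4N cells (2 genes beyond 1), 0.093 for 4N over 2N in vehicle cells, and -0.17 for the difference between the treatments' 4N over 2N ratios. Separate TMM for sorted and unsorted libraries gave -0.50 in 2N (1 gene beyond 1) and -0.69 in 4N cells (2 genes). Relative to Gapdh they were 0.12, 0.036 (1 gene beyond 1), -0.018, -0.040 and -0.048, and the difference between treatments 0.00038. Without a filter they were -0.72 (2 genes), -0.54 (1 gene) and -0.72 (2 genes), and with at least 100 counts -0.62, -0.42 and -0.63. Over the 4 genes with whole counts only they were -0.035, -0.25, -0.41, -0.15 and -0.22, with 0 genes beyond 1. With near-identical rows added (an alternative chosen after seeing the data), 4N over 2N in vehicle cells was 0.046. Leaving out 1 of the 3 columns gave medians of -0.68 to -0.65 in unsorted cells and 1 to 2 genes beyond 1 in unsorted and in 4N cells. The ratios of Eno1 in unsorted cells (-0.999) and Pfkl in 4N cells (-0.995) lay at that threshold. The SD of Gapdh was 0.43 with library size alone.

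Treating the 3 columns as replicates, DESeq2 gave -0.62 in unsorted, -0.67 in 4N cells (2 genes beyond 1), 0.092 for 4N over 2N in vehicle cells and -0.17 for the difference between treatments. edgeR with the column number as a replicate block gave medians of -0.65, -0.45, -0.64, 0.07 and -0.08, as without it. The block moved the genes called from 11561 to 11537 in unsorted cells. These column fits called 8 to 10 members in every comparison, 4N over 2N included. They also called 74.2% to 80.5% of all genes for CYC065 over vehicle and 32.8% to 44.2% for 4N over 2N, since their error is that between parts of 1 library. The numbers did not pair the columns, since deviations of same-numbered columns correlated at a median of -0.006 (-0.36 to 0.33 over 45 pairs).

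In the fit over the 6 libraries, 9 members were called, and leaving out a vehicle-CYC065 pair gave 6 to 10. The other planned settings of that fit called 8 or 9, and requiring a log2 change beyond 1 as well, chosen after seeing the data, left 1 (Ldha). No setting of that fit called a member between 4N and 2N cells, while over all genes it called 37 without a filter, 4 without the first column and 255 without the unsorted pair. Apart from scaling to Gapdh, 3 of 50 pairwise member ratios changed sign under a planned setting (Hk2 unsorted, and Gapdh and Ldha for 4N over 2N in CYC065 cells). The cause of these shifts was not tested.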

Other observations

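The glucose-sensing and growth regulators listed beside the pathway were mostly not called. Of 12, 11 passed the filter, 1 rose (Mlxip, 0.47), 1 fell (Mlx, -0.57) and 9 were not called, with a median log2 change of -0.04. Myc, a direct activator of many glycolytic genes, was at 207 and 180 CPM in unsorted vehicle and CYC065 cells, 144 and 245 CPM in 2N cells and 138 and 253 CPM in 4N cells (log2 change 0.48 ± 0.22, edgeR adjusted p = 0.104).

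Txnip, which restrains glucose uptake and is induced by glucose, was singled out after its values were seen. It was at 28.9 CPM in unsorted vehicle cells but at 192 and 172 CPM in sorted 2N and 4N vehicle cells, and at 101, 115 and 85.3 CPM in the matching CYC065 libraries. Arrdc4, which is induced by the same glucose-sensing factors, was at 2.06, 6.97 and 6.47 CPM in vehicle and 4.96, 5.32 and 4.60 CPM in CYC065 cells. Ddit4 had the reverse order among vehicle libraries, at 52.8 CPM unsorted and 4.49 and 3.55 CPM sorted. No cause of these differences was tested.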
